A study of Ciona robusta with 6 samples.

Results

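The genes described here are the zinc finger genes of the sea squirt Ciona robusta whose symbol names a zinc-binding domain other than a plain C2H2 finger. They were chosen by symbol alone, as the rows whose name, after a leading ci- is dropped, starts with zf( but not with zf(c2h2). This took 82 of the 793 genes in the deposited table, under 30 domain names, 16 of which had a single member. Another 72 genes of the table carry a pure C2H2 name and serve as the nearest family for comparison.

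RNA was sequenced in bulk from dissected parts of hearts of wild caught, untreated adult animals. The cardiac tube (C) is the contractile central part of the heart, the pharyngeal blood sinus (PS) is the vessel on its pharyngeal side, and the stomach blood sinus (SS) is the vessel beside the stomach. Each group had 2 libraries, 6 in all, and each library was a pool of pieces from several hearts. Whole hearts were cut into the 3 parts, so the groups drew on the same hearts, and pericardial cells had been removed. Each sinus piece carried some of the adjoining tube muscle, which limits how far the sinuses stand apart from the tube.

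A zinc finger is a short protein fold held together by a zinc ion, and its many types do different work. C2H2 fingers mostly bind DNA, whereas RING fingers recruit ubiquitin-conjugating enzymes and so mark proteins for degradation or signalling, C3H and CCHC fingers bind RNA or single-stranded nucleic acid, PHD fingers read histone tails, FYVE fingers bind a lipid of endosomal membranes, and DHHC proteins attach palmitate to other proteins. These activities are known mostly from vertebrates, yeast and flies, and the roles given below are those of the domain, not of the Ciona gene. Most of the types occur in many cell types and are not markers of one tissue.

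The table gives FPKM, a read level scaled for gene length and library size, so that levels can be set beside each other between genes. Differences are log2 fold changes of FPKM + 1 with their standard error from limma, fitted on all 793 genes, and a gene was called at an adjusted p under 0.05 (Benjamini-Hochberg over all genes of the comparison). The 6 libraries held between 782 and 787 genes above 0. Their adjusted reads over the listed genes summed to between 1412760 and 1950480, and the true sequencing depth is unknown. Markers of cardiac muscle in the table (nk4, irx-b, smyd1, tropm1, if-a and ephrinb) were read in each part. All marker lists here were taken with earlier results of these data known, so they do not test the identity of a part. None was at 0 in any library, and their summed FPKM was 121562 to 128852 in C, 48015 to 53004 in PS and 64756 to 66417 in SS. Most of each sum was if-a alone, at 110117 and 118307 FPKM in C, 45180 and 39726 in PS, and 56125 and 57531 in SS. Markers of other tissues were also read, and some of them moved with the groups. The 3 neural symbols (gnrh1, th and opsin3) were all called higher in PS against C, with a summed FPKM of 4.19 to 5.03 in C, 167 to 276 in PS and 13.8 to 26.2 in SS. The 2 endostyle and pharynx symbols (1 called) summed to 11.2 to 29.0, 195 to 1051 and 11.2 to 23.1 FPKM, and the 8 sperm and axoneme symbols to 81.6 to 103, 54.6 to 117 and 217 to 612 FPKM, with 1 called higher in SS. The 2 stomach symbols (gh18 and ciap) summed to 97.4 to 125 FPKM in C, 113 to 134 in PS and 156 to 200 in SS. None of them was called in any comparison, and neither was any of the 4 vanabin symbols of blood cells. A bulk library cannot tell fewer cells of a type from less RNA per cell. Libraries were not scaled to equal totals, and doing so moved the median of all genes to 0.39 in PS and 0.42 in SS against C. A small difference from C below thus takes its sign partly from the scaling. The totals cover only the 793 listed genes, so abundant genes such as if-a weigh heavily in them. They were 777369 and 750972 FPKM in C, 592159 and 560813 in PS, and 546774 and 601683 in SS.

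All 82 genes were above 0 in every library, against 767 of 793 in the whole table. Their mean level over the 6 libraries ran from 5.33 to 5584 FPKM with a median of 100.2, where the median was 83.8 over the whole table and 46.2 for the pure C2H2 genes. The levels of 41 genes lay above 100 FPKM, 3 above 1000 FPKM and 5 under 20 FPKM. Together they made up 2.75% to 3.30% of the summed FPKM of a library. For 74 of the 82 the highest library was less than 2 times the lowest, so most of these genes sat at a similar level in the tube and in both sinuses. The same count was not made over the whole table, so it cannot show whether this sets the 82 apart.

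**Figure D1:**
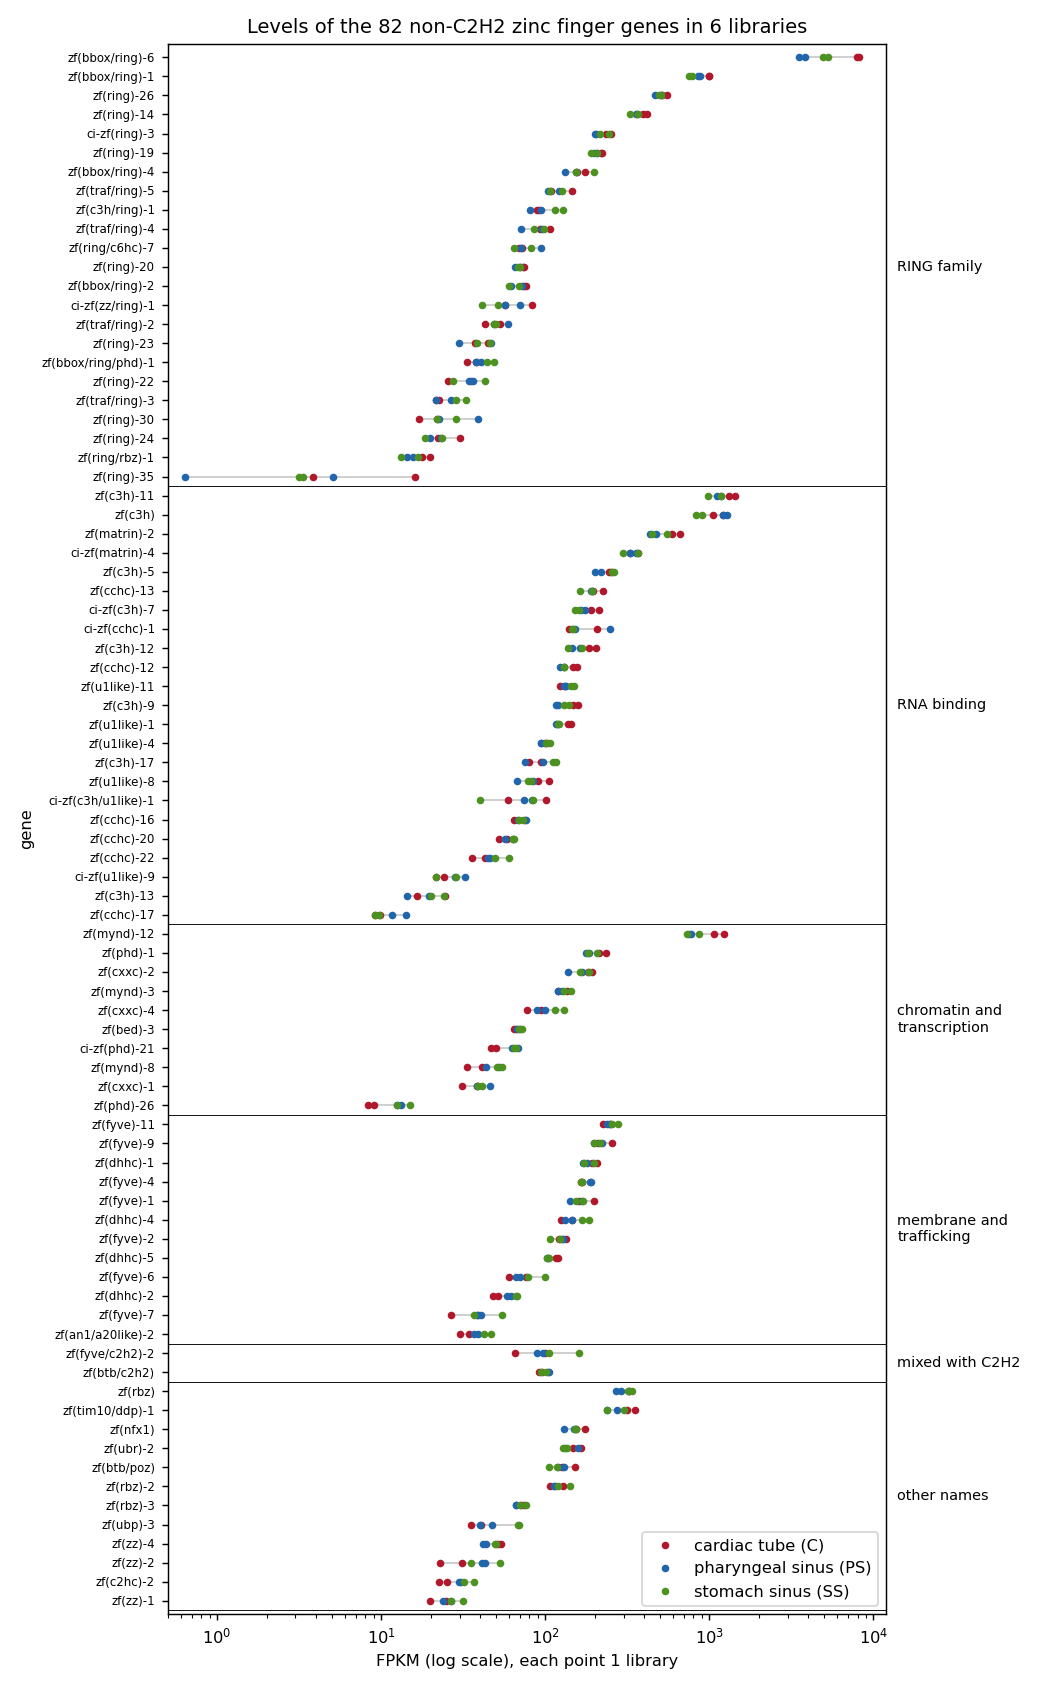
FPKM of the 82 zinc finger genes on a log axis, each point 1 library, coloured by heart part and grouped by the role of the domain. The points of a gene mostly lie close together, with zf(bbox/ring)-6 at the top of the RING family (3502 to 8128 FPKM) and zf(ring)-35, the lowest of all, spread from 0.634 to 16.0 FPKM.

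One gene stood apart in level. The symbol zf(bbox/ring)-6 pairs a RING finger with a B-box, the arrangement of the TRIM proteins of other animals, many of which are ubiquitin ligases and some of which act in muscle. It had the highest mean of the 82 (5584 FPKM), 4.66 times the next, and ranked 17 of 793 in the table. Its FPKM was 8128 and 7893 in C, 3502 and 3830 in PS, and 5249 and 4905 in SS. No 2 groups overlapped, with C highest, SS between and PS lowest. It alone accounted for 36.0% of the FPKM of the 82 genes in C, 28.4% in SS and 22.2% in PS.

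Between PS and C, zf(bbox/ring)-6 fell from 8011 ± 166 to 3666 ± 232 FPKM (SD, n = 2 each), so that the mean fell by 54.2%. Its log2 fold change was -1.13 ± 0.13 (SE, 95% interval -1.45 to -0.81, limma adjusted p = 0.0117), and it was the only one of the 82 called in any comparison. In SS it was at 5077 ± 243 FPKM, with a log2 fold change against C of -0.66 ± 0.13 (95% interval -0.98 to -0.34), which did not pass (limma adjusted p = 0.0724). Between the sinuses the log2 fold change, PS against SS, was -0.47 ± 0.13 (95% interval -0.79 to -0.15), and this did not pass either (limma adjusted p = 0.194). With libraries scaled to equal totals the 3 values were -0.72 (adjusted p = 0.0127), -0.24 (adjusted p = 0.232) and -0.48, so the sign held while the size against C shrank by over 1.5 times.

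The muscle markers, chosen with earlier results of these data known, moved the same way. All 6 had negative log2 fold changes in PS and in SS against C, 4 of them called lower in PS (nk4, irx-b, smyd1 and if-a) and 1 in SS (irx-b). The intermediate filament symbol if-a had a log2 fold change of -1.43 ± 0.27 in PS and -1.01 ± 0.27 in SS. The cardiac homeobox gene nk4 had -0.83 ± 0.13 and -0.54 ± 0.13. The part of muscle content in the fall of zf(bbox/ring)-6 was not tested. The call in PS was lost without either C replicate (limma adjusted p = 0.204 without replicate 1 and 0.182 without replicate 2), when the variance was not tied to the mean level (0.0529) and with the replicate number and the removed factor both in the model (0.129), while the fold change stayed between -1.10 and -1.16 in these fits.

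**Figure D2:**
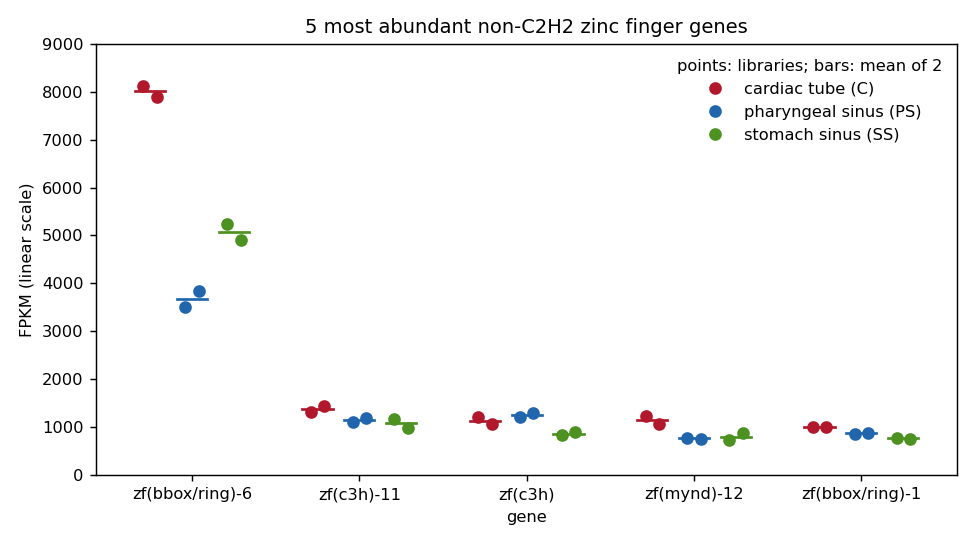
FPKM of the 5 most abundant of the 82 genes on a linear axis, with points for libraries and bars for the mean of 2. For zf(bbox/ring)-6 the C points (8128 and 7893) lie above the SS points (5249 and 4905) and the PS points (3502 and 3830), and the other 4 genes reach at most 1438 FPKM with smaller gaps between groups.

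Read over the family, the comparison of PS with C called 1 of the 82 genes, lower in PS. Over all genes of the deposited data 7.44% were called (2.40% lower), so a single call of 82 was not above the background. At an unadjusted p under 0.05 there were 4 of the 82 genes (4.88%), against 23.3% of the table and 8 of the 72 pure C2H2 genes. All 4 were lower in PS. They were zf(bbox/ring)-6, zf(mynd)-12, zf(matrin)-2 and zf(c3h)-9, the last named after its values were seen. The libraries of PS and C did not overlap for 48 of the 82 genes (58.5%), beside 61.7% of all genes. For 31 of these PS was the lower group (37.8% of the 82), where the whole table had 31.7%.

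The comparison of SS with C called none of the 82 by limma, with 8 at an unadjusted p under 0.05 (9.76%), where the table had 1.64% called and 23.0% at the unadjusted threshold. Of these 8, 6 were lower and 2 higher in SS. The groups did not overlap for 53 of the 82 genes (64.6%), beside 61.4% of the table. Between the sinuses none of the 82 was called by limma and 5 had an unadjusted p under 0.05, against 1.26% and 14.9% of the table. The sinuses did not overlap for 39 of the 82 genes (47.6%), beside 51.5% of the table, and PS was the lower one for 29 (35.4%), where the table had 24.8%. Both comparisons with C share the same 2 C libraries.

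The differences of the 82 genes were small. The median log2 fold change was -0.11 for PS against C, -0.00 for SS against C and -0.08 for PS against SS, where all genes had -0.00, 0.02 and -0.00 and the pure C2H2 genes 0.07, 0.12 and -0.07. The first of these medians turned to 0.30 with libraries scaled to equal totals, and the second to 0.39. Regardless of sign, the median difference was 0.20, 0.22 and 0.15 on the log2 scale, against 0.26, 0.26 and 0.19 over the table. The 95% interval of the difference lay wholly between -1 and 1 for 69, 65 and 72 of the 82 genes (84.1%, 79.3% and 87.8%), where the table had 62.0%, 63.6% and 70.0%. For these genes a difference from C, or between the sinuses, as large as 2-fold on the log2(FPKM + 1) scale lay outside the interval. The 82 genes also had smaller standard errors, with a median of 0.181 against 0.209 over the table and 0.255 for the pure C2H2 genes. The model ties each variance partly to the mean level, so these errors and the interval shares depend partly on level by construction. How much of the lower spread goes with the higher level was not tested.

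**Figure D3:**
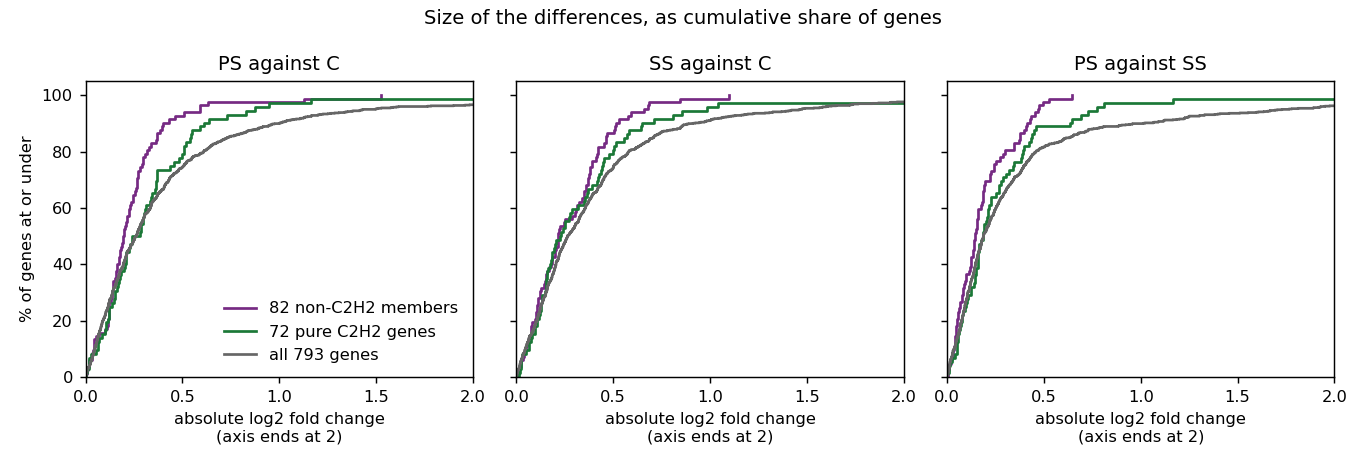
Cumulative share of genes (vertical, %) whose absolute log2 fold change is at or under the value on the horizontal axis, for the 82 zinc finger genes, the 72 pure C2H2 genes and all 793 genes, in each comparison. The curve of the 82 genes reaches high shares at smaller differences, with medians of 0.20, 0.22 and 0.15 against 0.26, 0.26 and 0.19 for all genes, and the axis ends at 2.

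The RING family held 23 genes, with a median level of 70.0 FPKM. In PS 17 of the 23 had negative log2 fold changes against C and 14 did in SS, where the table had 398 and 377 of 793. These became 2 and 3 of 23 with libraries scaled to equal totals, and 17 and 18 of 23 with libraries shifted to the same median. The 4 genes of the B-box and RING name lay wholly below C in PS, beside 31.7% of all genes, but only zf(bbox/ring)-6 was called. The second by level, zf(bbox/ring)-1, was at 991 and 991 FPKM in C, 858 and 874 in PS, and 778 and 754 in SS. Its groups did not overlap, with SS lowest, unlike zf(bbox/ring)-6 where PS was lowest. The log2 fold change of zf(bbox/ring)-1 was -0.19 ± 0.10 in PS (limma adjusted p = 0.310) and -0.37 ± 0.10 in SS (0.110). Both turned positive with equal totals (0.21 and 0.04) and were -0.28 and -0.49 with libraries shifted to the same median.

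The most abundant plain RING gene, zf(ring)-26, had 518 and 554 FPKM in C, 504 and 468 in PS, and 507 and 496 in SS, with a log2 fold change of -0.14 ± 0.11 in PS. This became 0.27 with equal totals and -0.23 with libraries shifted to the same median. The symbol zf(traf/ring)-5 joins RING to the TRAF finger of receptor adaptor proteins and had 145 and 108, 104 and 121, and 106 and 127 FPKM in the same order, with all groups overlapping. The symbol zf(ring/c6hc)-7 has the second domain of RING-between-RING ligases and also overlapped in all groups (64.8 to 94.0 FPKM). Neither gene differed beyond the spread of its libraries.

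Among RING genes with a further domain, zf(c3h/ring)-1 had 88.9 and 91.7 FPKM in C, 94.2 and 80.4 in PS, and 115 and 128 in SS. SS lay above both other groups, with a log2 fold change for PS against SS of -0.47 ± 0.17 (limma adjusted p = 0.282). For the symbol ci-zf(zz/ring)-1 SS was instead the lowest group, with 83.3 and 56.9 FPKM in C, 56.8 and 70.2 in PS and 41.0 and 51.3 in SS. The symbols zf(bbox/ring/phd)-1 (33.2 to 48.4 FPKM) and zf(ring/rbz)-1 (13.1 to 19.9 FPKM) did not pass in any comparison.

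At the low end, zf(ring)-30 had 21.8 and 17.1 FPKM in C, 22.5 and 38.8 in PS, and 28.4 and 21.8 in SS, with a log2 fold change of 0.59 ± 0.37 in PS (limma adjusted p = 0.411). The PS value rests mostly on PS replicate 2, without which the log2 fold change was 0.21, against 0.97 without PS replicate 1. In these fits the lone library had no weight in the term for the removed factor. With its weight kept they gave 0.06 and 1.13. The lowest gene, zf(ring)-35, had 3.83 and 16.0 FPKM in C, 5.06 and 0.634 in PS, and 3.32 and 3.16 in SS. These are 12 and 53, 16 and 2, and 11 and 10 adjusted reads. It had the largest fold change of the 82 in size, -1.53 ± 0.84 in PS (limma adjusted p = 0.345) and -1.10 ± 0.84 in SS (0.489), with 95% intervals from -3.58 to 0.53 and from -3.15 to 0.96. A high value in C replicate 2 and a low one in PS replicate 2 set its size, and without C replicate 2 its difference was -0.06 in PS and turned to 0.37 in SS.

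The genes with RNA-binding domains also numbered 23, with a median level of 135 FPKM. The C3H name, the type of the mRNA-destabilising tristetraprolin of mammals, held 8 of them. In PS 7 of the 8 had negative log2 fold changes against C and in SS 5 did. None of the 8 was negative in either sinus with libraries scaled to equal totals, whereas 7 and 6 were with libraries shifted to the same median. The most abundant, zf(c3h)-11, had 1315 and 1438 FPKM in C, 1111 and 1180 in PS, and 1170 and 980 in SS. C lay above both sinuses, with log2 fold changes of -0.26 ± 0.13 in PS (limma adjusted p = 0.297) and -0.36 ± 0.13 in SS (0.178).

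The gene listed as zf(c3h) with no number was the only one of its name with a positive log2 fold change in PS against C (0.14 ± 0.12). In SS against C it was among the 5 negative ones. It had 1206 and 1056 FPKM in C, 1204 and 1281 in PS, and 828 and 896 in SS. PS overlapped with C, and SS lay below both. Its log2 fold change was 0.53 ± 0.12 for PS against SS (95% interval 0.23 to 0.82, limma adjusted p = 0.119) and -0.39 ± 0.12 for SS against C (0.132). It had the lowest unadjusted p of the 82 between the sinuses and was called there only without the term for the removed factor (0.0432).

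Of the other RNA-binding types, zf(matrin)-2 carries the finger of matrin, a protein of the nuclear matrix. It had 666 and 588 FPKM in C, 474 and 436 in PS, and 445 and 549 in SS, so that C lay above both sinuses. Its log2 fold change was -0.46 ± 0.15 in PS (limma adjusted p = 0.123) and -0.34 ± 0.15 in SS (0.241). With equal totals these became -0.05 and 0.07, and with libraries shifted to the same median -0.55 and -0.46. The zinc knuckle gene zf(cchc)-13 (163 to 226 FPKM) and zf(u1like)-11 (123 to 149 FPKM), whose domain is that of a protein of the U1 splicing particle, differed from C by at most 0.25 in size in either sinus. The symbol ci-zf(c3h/u1like)-1 overlapped in all groups, with 59.5 and 101 FPKM in C and 83.9 and 40.2 in SS.

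The chromatin and transcription types held 10 genes, with a median level of 84.5 FPKM, and ran from lower to higher in the sinuses. The highest was zf(mynd)-12, whose MYND finger binds short peptides of partner proteins and also occurs in the muscle methyltransferase smyd1. It had 1230 and 1067 FPKM in C, 768 and 753 in PS, and 730 and 863 in SS. Both C libraries lay above all 4 sinus libraries. The log2 fold change of zf(mynd)-12 was -0.59 ± 0.13 in PS (95% interval -0.92 to -0.26, limma adjusted p = 0.0569) and -0.53 ± 0.13 in SS (0.109), and it was -0.06 ± 0.13 between the sinuses. In PS it was close to the threshold and crossed it in several other fits, with adjusted values in place of FPKM (0.0427) and with libraries shifted to the same median (0.0288) among them, while with equal totals its fold change shrank to -0.18.

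In this group 6 of the 10 genes had positive log2 fold changes in PS against C and 7 did in SS, where the table had 395 and 416 of 793. Their medians were 0.11 and 0.16. With equal totals 9 of the 10 were positive in each sinus, and with equal medians 5 of the 10. The other leading genes of each name, given next, had smaller differences than zf(mynd)-12 and were mostly lower in the sinuses. The histone-reading type zf(phd)-1 had 233 and 213 FPKM in C, 185 and 178 in PS, and 182 and 206 in SS, with a log2 fold change of -0.29 ± 0.14 in PS. This became 0.11 with equal totals and -0.38 with equal medians. Unlike it, 2 of the 3 PHD genes had positive log2 fold changes in both sinuses, none of them called. The CXXC type, which binds unmethylated CpG, was led by zf(cxxc)-2 (194 and 181, 138 and 168, and 185 and 163 FPKM). The BED finger gene zf(bed)-3 stayed between 64.4 and 71.9 FPKM in all 6 libraries, the narrowest span of a named gene at 1.12 times from lowest to highest.

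The membrane and trafficking types held 12 genes with a median level of 137 FPKM, and none of them had an unadjusted p under 0.05 in PS or SS against C by limma, where the table had 23.3% and 23.0%. The endosomal type was led by zf(fyve)-11, with 226 and 248 FPKM in C, 248 and 237 in PS, and 277 and 256 in SS. The palmitoyltransferase type was led by zf(dhhc)-1, with 193 and 206, 170 and 178, and 197 and 172 FPKM. The symbol zf(an1/a20like)-2, counted here although its domain also occurs in ubiquitin-binding proteins, had 30.4 and 34.2 FPKM in C, 39.1 and 36.7 in PS and 46.5 and 42.5 in SS, with no overlap between groups and a log2 fold change of 0.45 ± 0.24 in SS that did not pass (limma adjusted p = 0.316).

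A pair of names, held by 1 gene each, join a C2H2 finger to another domain. The symbol zf(fyve/c2h2)-2 had 65.4 and 100 FPKM in C, 96.3 and 88.5 in PS, and 162 and 105 in SS. Its SS libraries lay above the rest but far apart, with a log2 fold change of 0.68 ± 0.29 against C (limma adjusted p = 0.240) and -0.49 ± 0.29 for PS against SS (0.524). The first ran from 0.16 to 1.21 without C replicates 1 and 2, and the second from -0.06 to -0.93 without SS replicates 1 and 2. With no weight for the lone library in the term for the removed factor, the ranges were 0.38 to 0.99 and -0.80 to -0.19. The symbol zf(btb/c2h2) stayed between 91.9 and 106 FPKM.

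The remaining names held 12 genes. The largest positive log2 fold change of the 82 in SS against C was that of zf(ubp)-3, whose finger binds the free end of ubiquitin in deubiquitinating enzymes. It had 35.2 and 40.3 FPKM in C, 47.1 and 40.03 in PS, and 69.0 and 68.0 in SS. Both SS libraries lay above all 4 others, which overlapped. The log2 fold change of zf(ubp)-3 in SS against C was 0.85 ± 0.22 (95% interval 0.30 to 1.39, limma adjusted p = 0.110), and for PS against SS it was -0.65 ± 0.22 (0.245). With equal totals the first was 1.25 and passed (0.0278).

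The ZZ finger, known from dystrophin, was led in level by zf(zz)-4 (51.6 and 53.5 FPKM in C, 43.5 and 41.6 in PS, 50.3 and 49.1 in SS). The symbol zf(zz)-2 went the other way, with 23.0 and 31.0 FPKM in C, 40.9 and 42.8 in PS, and 53.2 and 35.5 in SS. Both sinuses lay above C for zf(zz)-2, with log2 fold changes of 0.63 ± 0.31 in PS (limma adjusted p = 0.296) and 0.68 ± 0.31 in SS (0.256). Leaving out 1 library moved the PS value to between 0.27 (without C replicate 1) and 0.99 (without C replicate 2). The SS value moved to between 0.28 and 1.09 (without SS replicates 1 and 2). With no weight for the lone library in the term for the removed factor, the ranges were 0.42 to 0.84 and 0.40 to 0.97. The mitochondrial import chaperone type zf(tim10/ddp)-1 had 350 and 316 FPKM in C, 273 and 237 in PS, and 238 and 303 in SS, so that C lay highest. Its log2 fold change was -0.38 ± 0.17 in PS and -0.31 ± 0.17 in SS, neither of which passed. With equal totals these became 0.02 and 0.11, and with libraries shifted to the same median -0.47 and -0.42.

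The other single or small names did not pass in any comparison. The symbols zf(rbz) (270 to 336 FPKM) and zf(c2hc)-2 (22.6 to 36.9 FPKM) had SS highest by mean, whereas zf(nfx1) (129 to 174 FPKM), zf(btb/poz) (106 to 152 FPKM) and zf(ubr)-2 (128 to 166 FPKM), the last with a box that in mammals recognises destabilising protein ends, had C highest.

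**Figure D4:**
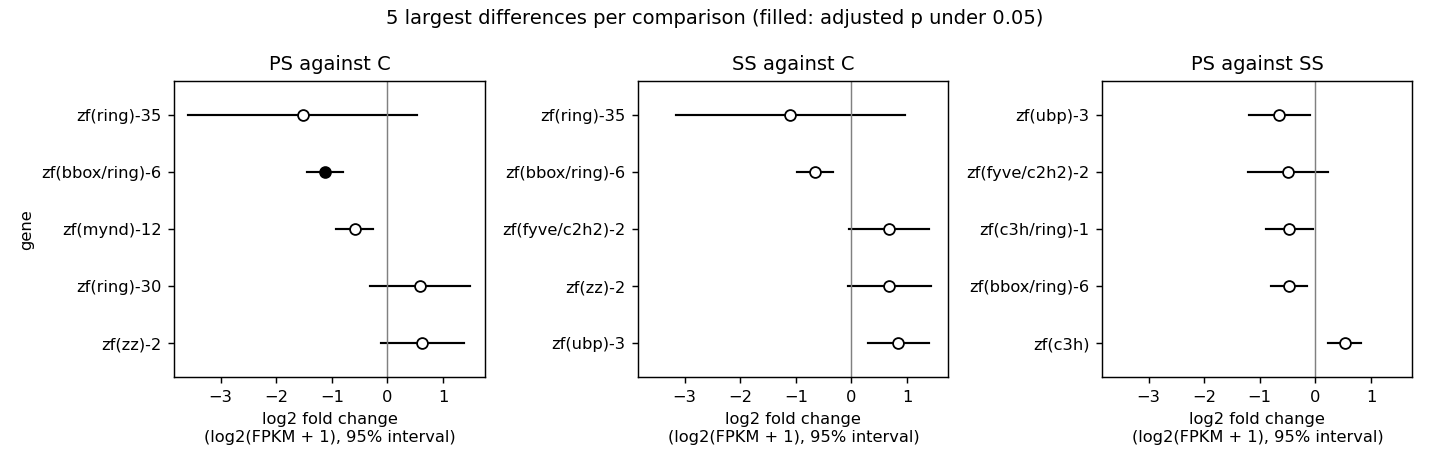
The 5 largest log2 fold changes of the 82 genes in each comparison, with 95% intervals, where a filled point marks an adjusted p under 0.05. The only filled point is zf(bbox/ring)-6 in PS against C (-1.13), and the widest intervals belong to zf(ring)-35.

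Genes of the table that carry other zinc-binding domains under names of their own were taken by a list of name prefixes. It found 7 symbols, of which neurogenin entered by its prefix alone and is not a zinc finger gene. In PS against C 1 of the 7 was called higher and 1 lower, where 7.44% of all genes were called, and 7 symbols are too few to compare with that share. None of the 7 was called in SS against C or between the sinuses by limma. The higher one was dmrt1, a DM-domain factor known from sex determination in vertebrates, listed at 0 and 0.280 FPKM in C, 4.40 and 5.29 in PS and 0 in both SS libraries (log2 fold change 2.37 ± 0.42, limma adjusted p = 0.0285). The neural and endostyle symbols given above were higher in the same PS libraries, and their part in the value of dmrt1 was not tested. The lower one was smyd1, already counted among the muscle markers above. It had 489 and 574 FPKM in C, 336 and 314 in PS, and 437 and 382 in SS, with a log2 fold change of -0.71 ± 0.14 (limma adjusted p = 0.0385). The GATA factor gataa stayed between 538 and 857 FPKM, with no difference past the threshold.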

How the data were processed

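Bulk RNA-seq of 3 heart parts with 2 pooled libraries each was analysed from 1 deposited table of 793 genes. Per the methods, which refer the Ciona data to the steps of the zebrafish data with another genome, the authors trimmed reads with cutadapt, aligned them with STAR to the UCSC Ciona genome ci3, kept unique alignments, counted reads per gene with featureCounts of Subread, and took out 1 factor of unwanted variation with RUVs within DESeq2. The deposited columns headed raw hold whole numbers from which that factor was already removed by the authors, so they were treated as a score and not as counts (over 179 genes, 1 weighted sum of replicate differences was at most 0.000695, where the median difference was 0.0835 on the natural log scale). The FPKM columns, also deposited, were derived by the authors from these adjusted values. The deposited log2 fold changes, p-values and mean columns of the authors' own comparisons were not used.

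FPKM values were put on a log2 scale after a pseudocount of 1 was added, and no filter was applied. All 6 libraries entered a single limma model (limma 3.58.1, R 4.3.3) of the 3 groups and the removed factor, in which variances were moderated along their trend with level (2 residual and 4.02 prior degrees of freedom). The threshold was a Benjamini-Hochberg adjusted p of 0.05. The fit was tested on simulated data. Since read depth is unknown, counting intervals were left out, and the 2 libraries of a group limit the precision. Nothing says whether these pools came from separate animals or days, so p-values measure only the spread between libraries.

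Named are the called genes, the 5 with the largest absolute log2 fold change in each comparison, the 5 highest in level and the highest of each domain name, with exceptions stated. The members, gene lists and tests were chosen with earlier results of these data known. None of the 793 symbols matched the reference gene table (0 matches), so no coordinates or sequences are given. Whether near-identical copies share reads was not checked. Alternatives were fits without the term or trend, adjusted reads, pseudocounts of 0.1 and 10, a filter at a mean of 5 FPKM, 2 scalings, a replicate block, and leaving out each library.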

Additional observations from a re-analysis of the deposited data

Results flagged for a closer look

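In the deposited FPKM the C3H gene zf(c3h)-5 lay on opposite sides of the cardiac tube in the sinuses. It had 246 and 251 FPKM in C, 217 and 202 in PS, and 254 and 262 in SS, so both PS libraries lay below and both SS libraries above both C libraries. Against C the log2 fold change was -0.25 ± 0.12 in PS (limma adjusted p = 0.296) and 0.05 ± 0.12 in SS (0.840). With libraries scaled to equal totals both were positive (0.16 and 0.46), and with libraries shifted to the same median both were negative (-0.34 and -0.07). The opposite sides thus depended on the scaling. The log2 fold change for PS against SS was -0.30 (limma adjusted p = 0.329). The difference was not tested as an interaction.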

How the results depend on the processing

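The fits rest on 2 libraries a group, and the number of calls moved widely with the setting. In PS against C, 59 genes were called and 1 of the 82. Without the term for the removed factor these were 151 and 3, without the trend 13 and 0, with equal totals 124 and 2, with adjusted reads 2 of the 82 and with equal medians 2 of the 82. In SS against C, 13 genes and none of the 82 were called. These were 113 and 5 without the term, 0 genes without the trend, 32 and 1 with adjusted reads, 2 genes with a pseudocount of 0.1 or of 10, 26 genes with the filter, 114 and 5 with equal totals (all 5 higher) and 76 and 4 with equal medians (all 4 lower). Between the sinuses 10 genes and none of the 82 were called, with 33 and 2 without the term, 17 genes with adjusted reads, 2 with a pseudocount of 0.1, 3 with the filter and 22 with equal totals. The median log2 fold change of the 82 moved to 0.30 (PS) and 0.39 (SS) with equal totals and to -0.20 (PS) and -0.12 (SS) with equal medians. The cause of the other changes was not tested.

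Leaving out 1 library leaves 1 residual degree of freedom, and the lone library of a group is assumed to vary like the rest. The term was kept, which shifts the mean of a group left with 1 library. In a second set of fits, chosen after the first had been seen, the lone library was given no weight in the term. Over both sets the calls ran from 0 to 81 genes (0 to 79 in the first) and 0 to 3 of the 82 in PS against C, 0 to 92 and 0 to 2 in SS against C, and 0 to 58 genes (0 to 57 in the first) and 0 to 1 between the sinuses. In PS against C they were lowest without C replicate 1 (2 genes) or C replicate 2 (0 genes). In SS against C they were 0 without either C or either SS replicate, and 90 and 92 without PS replicates 1 and 2. Between the sinuses they were 0 without either C replicate or SS replicate 2, 1 without SS replicate 1, and 57 and 31 in the first set without PS replicates 1 and 2. Without a PS library the prior degrees of freedom were infinite. Of the fold changes followed under each setting, which were the called ones and the 5 largest of each comparison, 1 turned sign, that of zf(ring)-35 in SS against C, which ran from -2.57 without C replicate 1 to 0.37 without C replicate 2 with the term's weight kept. With no weight for the lone library the latter was -0.19.

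The 3 parts were cut from the same hearts and replicate numbers are shared between groups, but no source says that a number marks the same pool. Deviations of same-numbered libraries correlated across genes at -0.46 (C and PS), -0.54 (C and SS) and -0.46 (PS and SS), and the removed factor itself ran close to replicate 1 against 2. Its removal left a weighted sum of the 3 replicate differences near 0 (weights 0.64, 0.53 and 0.55), which by itself makes such correlations negative. They therefore cannot show whether same-numbered libraries share a pool. With a replicate block beside the term 0 genes were called in each comparison and 0 of the 82 in PS against C. With the block in place of the term the calls were 61, 13 and 10 genes and 1, 0 and 0 of the 82.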
